A study of Mus musculus with 4 samples.

Results

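The genes of respiratory complex III, cytochrome c, complex IV and the ATP synthase were followed in lung after bleomycin. They were taken by name, as the rows whose symbol starts with Uqcr, Cox4, Cox5, Cox6, Cox7, Cox8 or Atp5 or equals Cyc1 or Cycs. This gave 44 of 17691 genes, of which 43 had a mean of at least 1 FPKM (fragments counted per length of transcript and per depth of the library) over the 4 libraries. The gene left out was Cox7b2, a testis-type isoform, listed at 0 and 0.41 FPKM in the PBS libraries and at 0 in either bleomycin library. All animals were wild-type C57BL/6 mice aged 6 to 8 weeks. In the PBS group (2 libraries) the buffer was given by the nose, and in the bleomycin group (2 libraries) bleomycin, a DNA-breaking drug used to injure the lung and provoke fibrosis. The treatment time was 10 days, and RNA came from whole lung tissue, so that a level is a mean over all its cell types. The labels do not say that the 2 libraries of a group came from separate animals, so p-values measure the spread between these libraries, which may be technical.

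Complex III passes electrons from ubiquinol to cytochrome c, the small carrier protein encoded by Cycs, and complex IV (cytochrome c oxidase) hands them on to oxygen. Both pump protons across the inner mitochondrial membrane, and the ATP synthase lets the protons flow back through its ring of c subunits to drive ATP formation in its F1 head. Several complex IV subunits come as pairs of genes, a widespread form and a form of narrower expression: Cox4i2 is known from lung and from oxygen-regulated vascular cells, Cox6a2, Cox7a1 and Cox8b from heart and skeletal muscle, and Cox6b2 from testis. The catalytic core of complex IV, cytochrome b and a pair of ATP synthase subunits are encoded by mitochondrial DNA. Genes of the mitochondrial genome numbered 0 in the table, so all values below are of nuclear genes.

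The c ring shows how such a family is built, and its sequences bear on whether fragments can be told apart between its genes. Atp5g1 (chromosome 11, 96072793 to 96075694), Atp5g2 (chromosome 15, 102662868 to 102671047) and Atp5g3 (chromosome 2, 73908447 to 73912464; GRCm38.p6) end in 75 codons that translate to 1 and the same stretch, the mature c subunit. Of these codons 23 were identical in all 3 genes, 52 differed and encoded the same residue, and 0 encoded different residues. The last 225 coding bases before the stop codon, from GENCODE M21 transcripts, are given 5′ to 3′ with capitals at the 57 positions where at least 1 of the 3 genes differs:
Atp5g1: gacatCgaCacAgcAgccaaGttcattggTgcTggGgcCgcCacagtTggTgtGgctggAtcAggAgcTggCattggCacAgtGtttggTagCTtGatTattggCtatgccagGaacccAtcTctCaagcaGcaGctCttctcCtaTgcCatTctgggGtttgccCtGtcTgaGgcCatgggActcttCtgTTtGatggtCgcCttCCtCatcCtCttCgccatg
Atp5g2: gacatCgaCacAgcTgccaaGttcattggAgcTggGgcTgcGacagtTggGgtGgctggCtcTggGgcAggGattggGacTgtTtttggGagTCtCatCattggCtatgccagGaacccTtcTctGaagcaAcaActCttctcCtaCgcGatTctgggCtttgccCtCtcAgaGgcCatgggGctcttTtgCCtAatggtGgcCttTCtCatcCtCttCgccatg
Atp5g3: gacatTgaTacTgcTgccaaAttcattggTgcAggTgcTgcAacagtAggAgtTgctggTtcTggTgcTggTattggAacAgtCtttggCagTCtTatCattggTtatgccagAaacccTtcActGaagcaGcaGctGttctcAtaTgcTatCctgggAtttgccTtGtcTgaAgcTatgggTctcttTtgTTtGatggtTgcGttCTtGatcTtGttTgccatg
The capitals fall throughout the stretch. The longest run of identical bases between a pair of these transcripts was 21 bases, between Atp5g1 and Atp5g2. For the isoform pairs of complex IV it was 10 to 14 bases, with 66.3% to 70.5% of aligned coding bases identical. The read length is not given in the sources used here.

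The depth, read from the step that 1 fragment makes in weakly expressed genes, came to 17000000 to 17800000 fragments per library. Surfactant protein gene Sftpc stood at 11500 ± 1816 FPKM for PBS and 9398 ± 2099 FPKM for bleomycin (SD, n = 2 each), as a marker of the labelled tissue. The groups differed in Y-linked transcripts: Eif2s3y was at 26.4 and 28.9 FPKM in the PBS libraries and listed at 0 in either bleomycin library, so the sex of the mice and the treatment cannot be told apart. Cell type markers moved with the groups in several lists. Over all tested genes 35.0% were lower and 31.5% higher without overlap, and 16.3% passed at an adjusted p under 0.05 by limma. Of 7 alveolar type II markers, Sftpc among them, 3 were higher and 1 lower without overlap, 3 overlapped and 1 passed (Napsa, higher). Club cell markers were lower without overlap for 5 of 5, of which 4 passed, and summed to 46835 to 61566 FPKM with PBS and 20649 to 20653 FPKM with bleomycin. Ciliated cell markers were lower without overlap for 7 of 7, of which 1 passed, and summed to 476 to 498 FPKM with PBS and 93 to 217 FPKM with bleomycin. Recruited macrophage markers were higher without overlap for 9 of 9, of which 8 passed, at 191 to 202 FPKM against 807 to 1442 FPKM. Hepatocyte markers, foreign to lung, fell for 7 of 7, from 79.2 to 83.7 FPKM with PBS to 3.48 to 7.21 FPKM with bleomycin. Alb, Apoc3, Hamp, Serpina1c and Ttr had bleomycin means under 1 FPKM. They passed the filter through the PBS group alone, so their calls add little to the values. The part of these differences in the values below was not tested. In such bulk tissue, fewer cells of a type and less RNA per cell cannot be told apart.

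Most of the 43 genes stood slightly higher after bleomycin, and the difference was about as large as that between the PBS libraries. On the log2(FPKM + 1) scale, on which changes at low levels come out too small, 32 of 43 were above 0 and 11 below, with a median log2 change of 0.15 (all 12986 tested genes: -0.02, with 6136 above and 6850 below). In the fit across all tested genes with limma, 1 of the 43 rose (Cox5a), 1 fell (Cox8b) and 41 did not pass at an adjusted p under 0.05, against 16.3% of all tested genes called, 8.59% higher and 7.69% lower. The bleomycin libraries lay above both PBS libraries for 23 genes and below both for 5, and the groups overlapped for 15. Over all tested genes 66.5% did not overlap: 31.5% were higher and 35.0% lower without overlap. Among the 43, PBS replicate 2 lay above PBS replicate 1 for 37, by a median of 0.14. The median change was 0.07 without PBS replicate 1 and 0.21 without PBS replicate 2. With PBS replicate 1 or PBS replicate 2 left out, limma called no gene of the table, and of the 43 genes the unadjusted p was under 0.05 for 1 higher and 1 lower gene without replicate 1 and for 3 higher and 1 lower gene without replicate 2. Over all tested genes it was under 0.05 for 1120 higher and 1007 lower genes without replicate 1 and for 1143 and 1059 without replicate 2. Without bleomycin replicate 1, 6 of the 43 were called higher (Cox5a, Cycs, Atp5g1, Uqcrc1, Uqcrq and Cox5b) and 5 lower (Cox8b, Cox4i2, Cox6a2, Cox6b2 and Atp5sl). Without bleomycin replicate 2, 9 were called higher (Cox5a, Cycs, Atp5g1, Uqcrc1, Atp5f1, Atp5k, Cox6c, Cox7b and Cox6b2) and 2 lower (Cox8b and Cox4i2). In these fits 2341 and 2402 genes of the table were called higher and 3144 and 1949 lower.

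**Figure D1:**
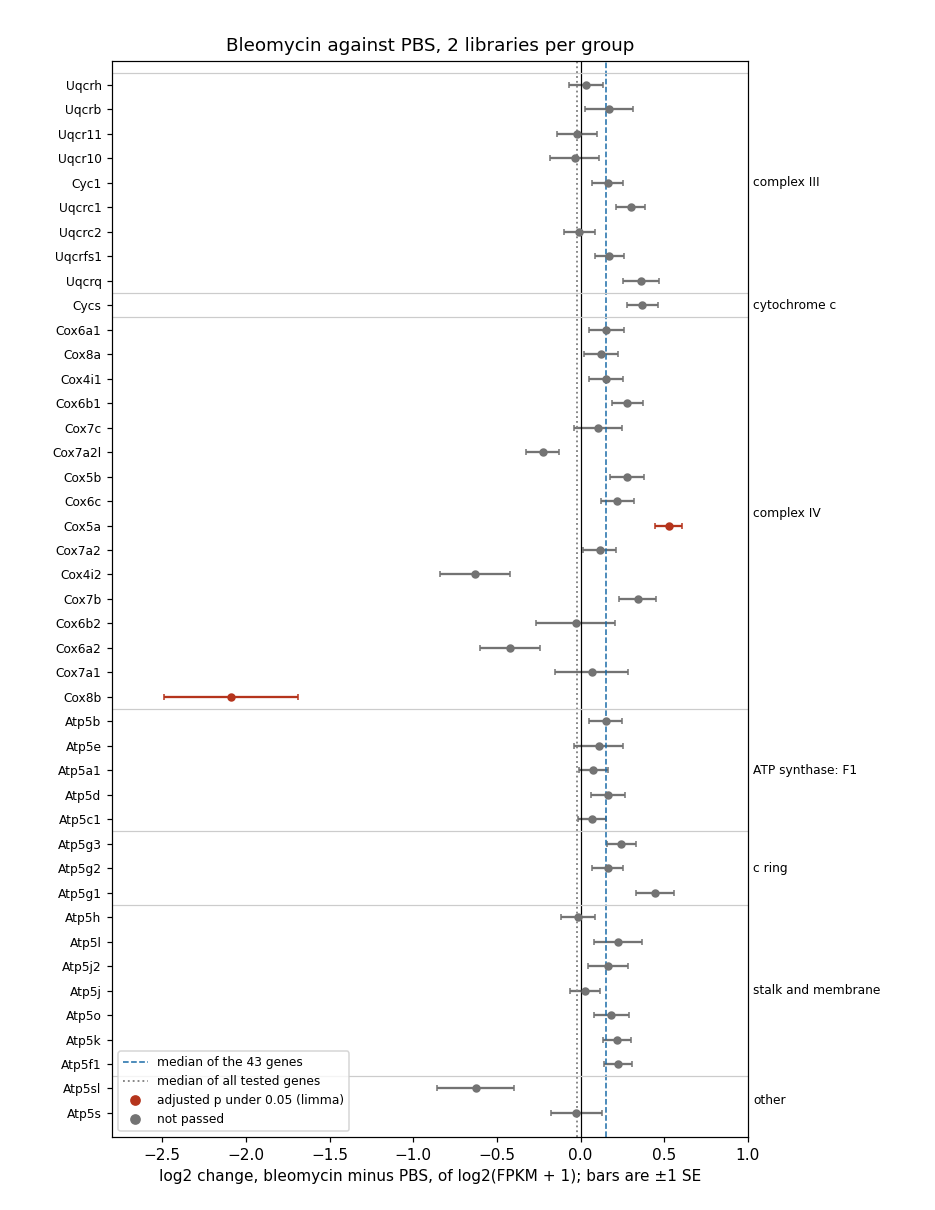
Log2 change (bleomycin minus PBS, of log2(FPKM + 1)) of each of the 43 genes, ordered by complex and then by level; points are limma estimates from 2 libraries per group and bars ±1 SE, red where the adjusted p was under 0.05. Most points lie to the right of 0, on both sides of the dashed median of 0.15. Cox5a lies furthest right and Cox8b, Cox4i2, Atp5sl and Cox6a2 furthest left.

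The difference between PBS libraries was shared in part with other genes of short mRNA. The 43 transcripts had a median length of 731 bases, against 2843 bases over all tested genes. Cytosolic ribosomal protein genes, also short, were above in PBS replicate 2 for 80 of 80, by a median of 0.20, while their median bleomycin change was 0.007. The 1947 other tested genes with lengths between the quartiles of the 43 had medians of 0.058 between the PBS libraries and 0.002 between groups, with PBS replicate 2 above for 64.1%, against 86.0% of the 43. For the 468 of them with a mean of at least 50 FPKM the medians were 0.10 and 0.04. Complex I subunits, the nearest relatives by function and length, had medians of 0.16 and 0.08. The part of transcript length in the median of 0.15 was not tested.

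**Figure D2:**
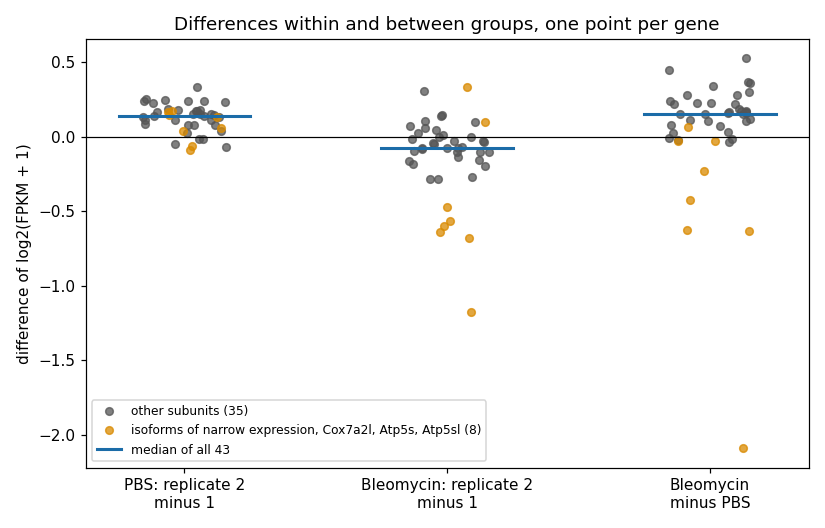
Differences of log2(FPKM + 1) for each of the 43 genes, between the PBS libraries, between the bleomycin libraries and between group means; each point is a gene and the blue bars are medians. The PBS libraries differ by a median of 0.14 and the groups by 0.15, and the orange points, the 5 isoforms of narrower expression with Cox7a2l, Atp5s and Atp5sl, reach furthest below 0 in the other comparisons.

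Of the 9 complex III genes none passed the test, with log2 changes from -0.04 to 0.36 and a median of 0.16. The unadjusted p was under 0.05 for 2 of the 9, against 35.3% of all tested genes. Uqcrq, a small subunit of the membrane part, was at 18.8 and 22.4 FPKM in the PBS libraries and 26.1 and 27.2 FPKM in the bleomycin libraries. Both bleomycin values lay above both PBS values, and the log2 change was 0.36 ± 0.11 (adjusted p = 0.0907 by limma; a log2 change is given ± its SE throughout). Uqcrc1, a core protein on the matrix side, was at 48.9 and 53.7 FPKM in the PBS libraries and 63.6 and 62.8 FPKM in the bleomycin libraries (0.30 ± 0.09, adjusted p = 0.081 by limma). It passed after rescaling to TPM (0.37) and under no other alternative that kept the 4 libraries. Its change was 0.29 and 0.31 with bleomycin replicate 1 or replicate 2 left out, and 0.23 and 0.36 without PBS replicate 1 or 2. Its partner in the core, Uqcrc2, overlapped between groups, at 51.7 and 57.5 FPKM in the PBS libraries and 52.4 and 56.1 FPKM in the bleomycin libraries.

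The electron-carrying proteins of complex III lay between these. Cyc1, which encodes cytochrome c1, was at 54.5 and 60.7 FPKM in the PBS libraries and 66.2 and 62.7 FPKM in the bleomycin libraries. Uqcrfs1, the Rieske iron-sulfur protein, was at 33.6 and 37 FPKM in the PBS libraries and 39.8 and 39.8 FPKM in the bleomycin libraries. Neither overlapped between groups and neither passed (log2 changes of 0.16 ± 0.09 and 0.17 ± 0.09). Uqcrb, Uqcrh, the hinge protein gene, Uqcr10 and Uqcr11 had levels of 97.7 to 188 FPKM over the 4 libraries, and for each the groups overlapped. Per length, Uqcrq was the lowest of the 9, although it encodes a subunit of the same complex; its row holds 2 transcripts, and a level per length depends on which of them the authors' lengths came from.

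Cycs, the somatic cytochrome c gene, was at 27.6 and 28.4 FPKM in the PBS libraries and 38.6 and 34.5 FPKM in the bleomycin libraries. The groups did not overlap, the ratio of means was 1.3, and the log2 change of 0.37 ± 0.09 missed the threshold (adjusted p = 0.0572 by limma). It passed with quantile normalization, upper quartile scaling and rescaling to TPM, where its log2 changes were 0.36, 0.41 and 0.44. The last 2 scalings also moved the median change of all tested genes, from -0.024 to 0.012 and 0.039. Under the other alternatives that kept the 4 libraries it did not pass (adjusted p of 0.0559 to 0.0977 by limma). Without 1 library its change was 0.29 to 0.45.

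In complex IV, Cox5a stood out among the widespread subunits. It encodes a subunit on the matrix side of the complex that is a known target of allosteric regulation (gene 12858, chromosome 9, 57517328 to 57532427). Cox5a was at 70.8 and 74.9 FPKM in the PBS libraries and 105 and 105 FPKM in the bleomycin libraries. The groups lay far apart for the spread within them, with a ratio of means of 1.45. Cox5a rose by 0.53 ± 0.08 on the log2 scale (adjusted p = 0.0207 by limma), and passed under all alternatives that kept the 4 libraries. Its change was 0.49 and 0.56 without PBS replicate 1 or 2, and 0.53 and 0.52 without bleomycin replicate 1 or 2.

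The other subunits of that kind were higher by less and did not pass. Cox7b, an X-linked gene, was at 38.4 and 43.6 FPKM in the PBS libraries and 55.5 and 48.8 FPKM in the bleomycin libraries (0.34 ± 0.11, adjusted p = 0.103 by limma). Cox6b1, which faces cytochrome c, was at 234 and 248 FPKM in the PBS libraries and 291 and 294 FPKM in the bleomycin libraries. Cox5b, a zinc-binding subunit, was at 110.3 and 124 FPKM in the PBS libraries and 137 and 147 FPKM in the bleomycin libraries. For these 3 genes the groups did not overlap, and the log2 changes of Cox6b1 and Cox5b were 0.28 ± 0.09 and 0.28 ± 0.10. Cox6c, Cox4i1, Cox6a1 and Cox8a were also higher without overlap, by 0.12 to 0.22. Cox6c was at 114 and 120 FPKM in the PBS libraries and 144 and 128 FPKM in the bleomycin libraries, and Cox8a, the widespread subunit 8, ranged from 259 to 299.8 FPKM. Cox7c (194 to 249 FPKM) and Cox7a2 (66.5 to 79.2 FPKM) overlapped between groups. Cox6a1 was, per length, the most abundant of the 43, at 377 and 408 FPKM in the PBS libraries and 426 and 447 FPKM in the bleomycin libraries.

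**Figure D3:**
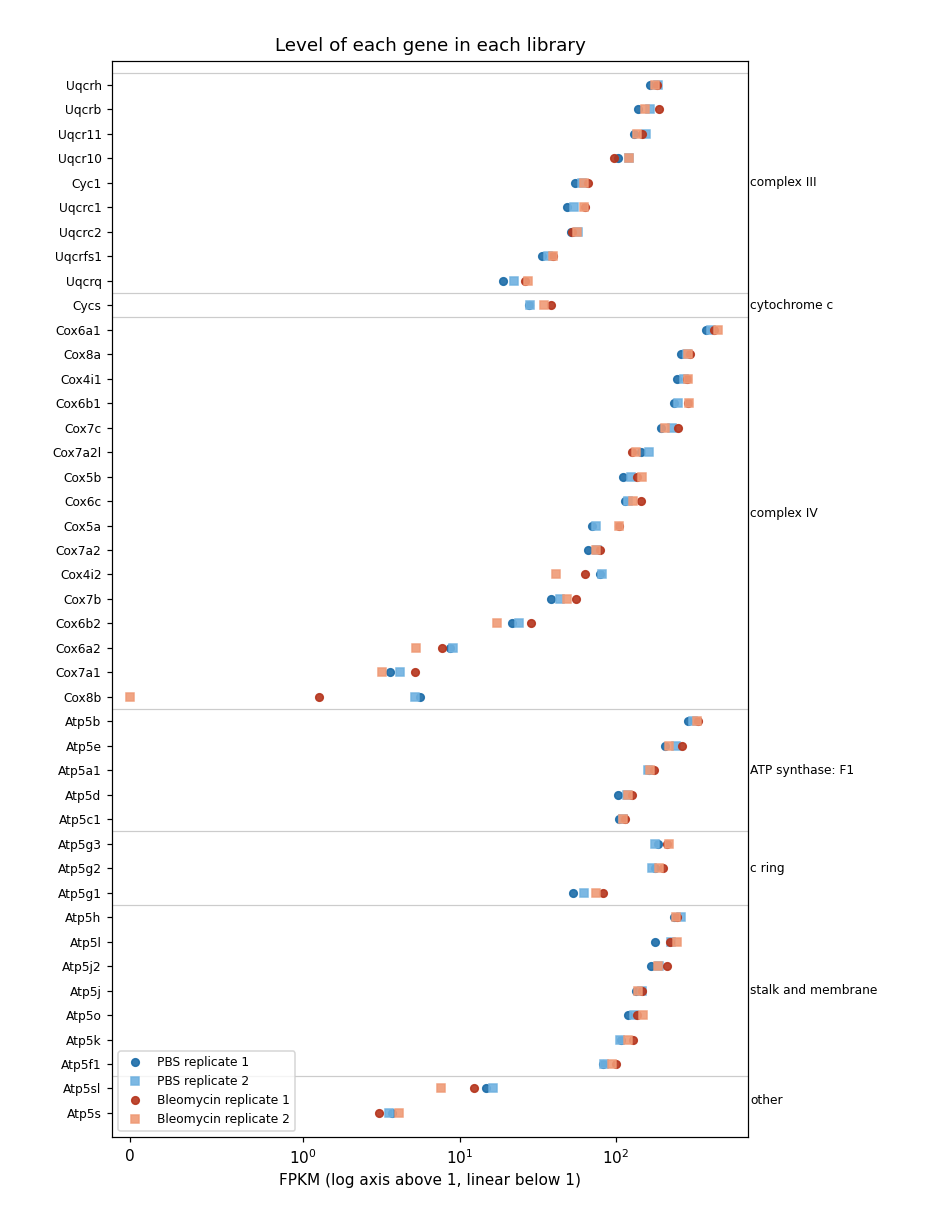
FPKM of each of the 43 genes in each of the 4 libraries (log axis above 1 FPKM, linear below), grouped by complex and ordered by mean level. Widespread subunits run from Uqcrq, at 18.8 to 27.2 FPKM, to Cox6a1, with the 4 libraries mostly close together on this axis. Cox8b, Cox6a2, Cox4i2 and Atp5sl spread to the left in the bleomycin libraries, and furthest in replicate 2.

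The isoforms of narrower expression went the other way or varied between the bleomycin libraries. Cox8b, the heart and muscle form of subunit 8 (gene 12869, chromosome 7, 140898942 to 140900446), was at 5.61 and 5.21 FPKM with PBS, at 1.26 FPKM in bleomycin replicate 1 and listed at 0 in replicate 2. At the estimated depth these levels stand for about 34, 32, 8 and 0 fragments, and 0 allows a level of up to 0.468 FPKM (3 fragments). These limits cover counting error alone. Cox8b fell by 2.09 ± 0.40 on the log2 scale (adjusted p = 0.0335 by limma). It passed the filter on low values through the PBS group alone, since its bleomycin mean was 0.63 FPKM, so it had to differ and the call adds little to the values. That call was lost with pseudocounts of 0.1 and 0.5 (log2 changes of -3.90 and -2.65) and with no filter, and at a filter of 5 FPKM the gene is not tested.

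Cox4i2, the lung form of subunit 4 (gene 84682, chromosome 2, 152753916 to 152765039), was at 79.3 and 81.4 FPKM in the PBS libraries and 63.7 and 41.6 FPKM in the bleomycin libraries. Both bleomycin libraries lay below both PBS libraries, and replicate 2 lay further below. The ratio of means was 0.655 and the log2 change -0.63 ± 0.21 did not pass (adjusted p = 0.107 by limma). The log2 change was -0.93 without bleomycin replicate 1 and -0.33 without replicate 2, so the size of the difference rests on replicate 2. Cox4i1, its widespread partner, was at 245 and 271 FPKM in the PBS libraries and 284 and 288 FPKM in the bleomycin libraries.

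Cox6a2 was at 8.74 and 9.13 FPKM in the PBS libraries and 7.72 and 5.29 FPKM in the bleomycin libraries (-0.42 ± 0.18, adjusted p = 0.168 by limma). Without bleomycin replicate 1 its change was -0.66, and without replicate 2 it was -0.19. Cox7a1 overlapped between groups, at 3.58 and 4.15 FPKM in the PBS libraries and 5.19 and 3.17 FPKM in the bleomycin libraries. Cox6b2 also overlapped, at 21.7 and 23.9 FPKM in the PBS libraries and 28.5 and 17.4 FPKM in the bleomycin libraries. Its log2 change was -0.37 without bleomycin replicate 1 and 0.31 without replicate 2, so its direction rests on which library is kept. All 5 isoforms were lower in bleomycin replicate 2 than in replicate 1, as were 30 of the 43 genes and 8090 of all 12986 tested genes. Cox7a2l, which encodes a factor that joins complexes III and IV into supercomplexes, was lower without overlap, at 145 and 163 FPKM in the PBS libraries and 126.5 and 135 FPKM in the bleomycin libraries (-0.23 ± 0.10, adjusted p = 0.184 by limma).

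Expressed as shares of paired genes, which do not depend on a scaling factor per library, Cox4i2 made up 24.5% and 23.1% of the summed FPKM of Cox4i1 and Cox4i2 with PBS and 18.3% and 12.6% with bleomycin. Cox6a2 made up 2.26% and 2.19% of its pair with PBS and 1.78% and 1.17% with bleomycin, and Cox8b 2.12% and 1.8% against 0.418% and 0%. For these 3 pairs the widespread partner took the larger share in both bleomycin libraries than in either PBS library. The exact permutation test (two-sided) gave p = 0.333 for each, the smallest that 2 against 2 libraries allow. The shares of Cox7a1 (5.1% and 5.18%, then 6.15% and 4.06%) and Cox6b2 (8.49% and 8.78%, then 8.92% and 5.6%) overlapped between groups, each with an exact permutation p of 1.

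**Figure D4:**
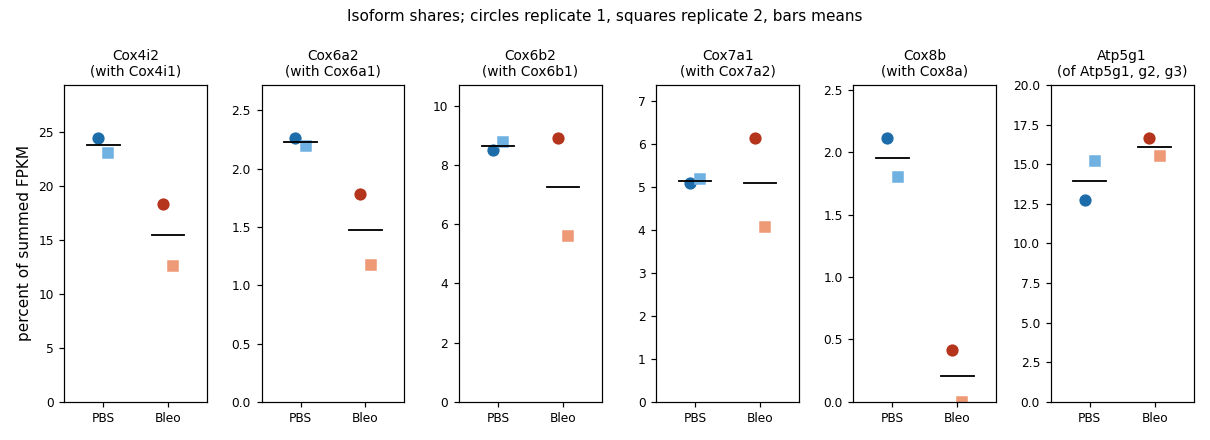
Share of the summed FPKM of each isoform pair (or of the 3 subunit c genes) held by the named gene, by library; circles are replicate 1, squares replicate 2, bars group means, and each axis starts at 0 with its own scale. The shares of Cox4i2, Cox6a2 and Cox8b lie lower in both bleomycin libraries, those of Cox6b2 and Cox7a1 overlap, and that of Atp5g1 lies slightly higher.

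Markers of cells that use these isoforms were at low levels. Of 16 striated muscle markers 7 had a mean of at least 1 FPKM. Of these 1 fell (Tcap, a sarcomere protein gene, from 3.9 and 3.66 to 0.95 and 0.65 FPKM), 0 rose and 6 did not pass. Of all tested genes 16.3% were called. Like Cox8b, Tcap passed the filter through the PBS group alone, since its bleomycin mean was 0.8 FPKM, so that call adds little to the values. The summed level of all 16 was 56.1 and 47 FPKM in the PBS libraries and 40.8 and 33.9 FPKM in the bleomycin libraries, without overlap. The markers did not share 1 order of the libraries. Actc1, the cardiac actin gene and the highest of them, was at 23.9 and 21.1 FPKM in the PBS libraries and 23.6 and 10.5 FPKM in the bleomycin libraries. Myh6, the main myosin heavy chain gene of adult mouse heart, was at 0.8 and 0.14 FPKM in the PBS libraries and 0.05 and 0.04 FPKM in the bleomycin libraries. Tnnt2 (cardiac troponin T) was at 7.93 and 4.79 FPKM in the PBS libraries and 4.41 and 9.88 FPKM in the bleomycin libraries, and Myl4, an atrial light chain gene, at 5.97 and 5.89, then 3.73 and 6.75 FPKM, both highest in bleomycin replicate 2. Of the 4 brown adipocyte markers in the table, which also go with Cox7a1 and Cox8b, none had a mean of 1 FPKM. Ucp1 was at 0.1 FPKM or less in every library, Cidea at 0.14 to 1.07 FPKM, Plin5 at 0.62 to 1.11 FPKM and Dio2 at 0.13 and 0.21 FPKM in the PBS libraries and 0.6 and 0.99 FPKM in the bleomycin libraries. The part of striated muscle in the fall of Cox8b was not tested.

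**Figure D5:**
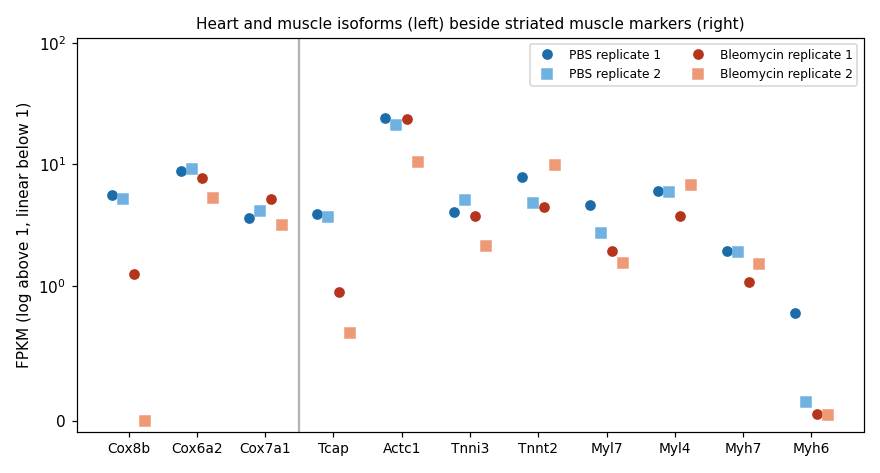
FPKM of the heart and muscle isoforms Cox8b, Cox6a2 and Cox7a1 (left of the line) and of 8 striated muscle markers (right) in each library, log axis above 1 FPKM and linear below. Cox8b and Tcap separate the groups widely, Cox6a2, Myl7, Myh7, Tnni3 and Myh6 more narrowly, and Cox7a1, Actc1, Tnnt2 and Myl4 overlap.

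For Cox4i2 the pericyte and vascular smooth muscle list was read in the same way. Its 11 markers summed to 187 and 181 FPKM in the PBS libraries and 199.8 and 181 FPKM in the bleomycin libraries, with 1 risen (Pdgfrb), 1 fallen (Trpc6) and 9 not passed. Without overlap 4 were higher (Pdgfrb, Des, Rgs5 and Cspg4) and 4 lower (Trpc6, Higd1b, Notch3 and Myh11), or 72.7% together. Over all tested genes this was 66.5%, with 31.5% higher and 35.0% lower. Des, a muscle intermediate filament gene and the most abundant, was at 48.6 and 43 FPKM in the PBS libraries and 58.4 and 57.1 FPKM in the bleomycin libraries. Higd1b, a pericyte gene, was at 30.8 and 40.5 FPKM in the PBS libraries and 25 and 15.5 FPKM in the bleomycin libraries, lower without overlap (adjusted p = 0.0992 by limma). Ndufa4l2, a hypoxia-induced relative of a complex IV subunit that is also abundant in pericytes, was at 43.5 and 43.7 FPKM in the PBS libraries and 35.6 and 30 FPKM in the bleomycin libraries (adjusted p = 0.0682 by limma). Higd1b, Ndufa4l2 and Cox4i2 were each lowest in bleomycin replicate 2, while Pdgfrb, Des, Rgs5 and Cspg4 were each lowest in a PBS library. In bleomycin replicate 2, 9 of the 11 markers were lower than in bleomycin replicate 1, as were 8090 of all 12986 tested genes. Of 7 capillary endothelial markers 0 rose, 3 fell (Ednrb, Car4 and Kdr) and 4 did not pass, 6 were lower without overlap, and they summed to 1206 and 1248 FPKM in the PBS libraries and 888 and 823 FPKM in the bleomycin libraries. Beside the calls in both lists, 8.59% of all tested genes were called higher and 7.69% lower. The part of vascular cells in the level of Cox4i2 was not tested.

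The ATP synthase genes were higher by small amounts, and none of the 15 subunit genes passed. Log2 changes ran from -0.02 to 0.44 with a median of 0.16. Without overlap 10 of 15 were higher and 0 lower, or 66.7%, against 31.5% and 35.0% of all tested genes, 66.5% together. In the F1 head, Atp5b (the catalytic beta subunit) was at 287 and 311 FPKM in the PBS libraries and 335 and 329 FPKM in the bleomycin libraries. Atp5a1 (alpha) was at 162 and 160.5 FPKM in the PBS libraries and 174 and 166 FPKM in the bleomycin libraries. The log2 changes of Atp5b and Atp5a1 were 0.15 ± 0.10 and 0.08 ± 0.08. The central stalk genes Atp5c1 and Atp5d were higher without overlap by 0.07 and 0.16, with levels of 105 to 115 FPKM and 104 to 127 FPKM. Atp5e, also of the central stalk, overlapped at 207 to 266 FPKM.

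In the c ring all 3 genes were higher without overlap, as were 31.5% of all tested genes. Atp5g1 was at 53 and 62.5 FPKM in the PBS libraries and 82.6 and 74.9 FPKM in the bleomycin libraries, a ratio of means of 1.36 (0.44 ± 0.12, adjusted p = 0.0651 by limma). It passed after rescaling to TPM (0.52) and under no other alternative that kept the 4 libraries. Its change was 0.37 and 0.51 with bleomycin replicate 1 or replicate 2 left out, and 0.33 and 0.56 without PBS replicate 1 or 2. Atp5g3 was at 185 and 179 FPKM in the PBS libraries and 212 and 218 FPKM in the bleomycin libraries (0.24 ± 0.09, adjusted p = 0.125 by limma). Atp5g2 was at 178 and 169.8 FPKM in the PBS libraries and 201 and 188 FPKM in the bleomycin libraries (0.16 ± 0.09, adjusted p = 0.271 by limma). Since all 3 encode the same mature protein, their sum is the message for that protein: 416 and 411 FPKM in the PBS libraries and 495 and 481 FPKM in the bleomycin libraries, a ratio of 1.18 (exact permutation p = 0.333). The PBS sums differed by less than those of the whole enzyme, 2308 and 2497 FPKM. Atp5g1 took 12.7% and 15.2% of the sum with PBS and 16.7% and 15.6% with bleomycin, although its share depends on which of its transcripts, which differ widely in length, the authors' lengths came from.

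Of the stalk and membrane genes, Atp5f1 (subunit b) was at 82.7 and 83.9 FPKM in the PBS libraries and 101 and 93.9 FPKM in the bleomycin libraries. Atp5k (subunit e) was at 107 and 106 FPKM in the PBS libraries and 129 and 119.5 FPKM in the bleomycin libraries. Both were higher without overlap, with log2 changes of 0.22 ± 0.08 each (adjusted p = 0.134 and adjusted p = 0.147 by limma). Atp5o, the subunit that ties the stalk to the head, was at 119 and 131.5 FPKM in the PBS libraries and 136 and 149 FPKM in the bleomycin libraries. Atp5l (179 to 247 FPKM), Atp5j2 (168 to 214 FPKM), Atp5j (135 to 147 FPKM) and Atp5h (235.5 to 261 FPKM) overlapped, and Atp5h was the lowest of the 15 by change (-0.02 ± 0.10).

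The remaining pair carries the prefix without being a subunit. Atp5sl is named Dmac2 in the RefSeq gene table and is known as an assembly factor of complex I. It was at 14.8 and 16.5 FPKM in the PBS libraries and 12.5 and 7.61 FPKM in the bleomycin libraries, lower without overlap and lowest in replicate 2 (-0.63 ± 0.23, adjusted p = 0.13 by limma). Without bleomycin replicate 1 its change was -0.95, and without replicate 2 it was -0.31. Atp5s, named Dmac2l there, overlapped between groups at 3.04 to 4.09 FPKM.

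Summed by complex, the levels differed little between groups. Complex III summed to 746 and 861 FPKM in the PBS libraries and 863 and 837 FPKM in the bleomycin libraries, which overlap (exact permutation p = 0.667). Complex IV, taken as 16 genes with the isoforms of narrower expression and Cox7a2l among them, gave a ratio of 1.1 (exact permutation p = 0.333). It summed to 1973 and 2164 FPKM in the PBS libraries and 2303 and 2233 FPKM in the bleomycin libraries. The ATP synthase subunits summed to 2709 and 2605 FPKM with bleomycin, a ratio of 1.11 to their PBS values (exact permutation p = 0.333). All 43 genes held 1.04% and 1.13% of each PBS library's summed FPKM and 1.25% and 1.24% of each bleomycin library's. The club cell product Scgb1a1 alone stood at 54410 and 41170 FPKM in the PBS libraries and 18860 and 19750 FPKM in the bleomycin libraries, so the sum these shares are taken from differed between groups as well.

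The other genes of the pathway, from lists set by function, held few called genes. Counts at an unadjusted p under 0.05 in these lists stand beside 35.3% of all tested genes, 2231 higher and 2349 lower of 12986. Of 36 complex I subunits 1 rose (Ndufa11, from 10.3 and 11.6 to 15.7 and 15.4 FPKM), 0 fell and 35 did not pass, among them the 2 most abundant, Ndufa3 (0.11) and Ndufb11 (-0.10). For complex I the unadjusted p was under 0.05 for 5 higher and 0 lower. Of 4 complex II subunits 0 passed, and the unadjusted p was under 0.05 for 1 higher and 1 lower. Sdha, the flavoprotein of complex II, was at 81.2 and 84.2 FPKM in the PBS libraries and 69 and 66.6 FPKM in the bleomycin libraries (-0.28, adjusted p = 0.0746 by limma). Sdhc was at 79.2 and 73.3 FPKM in the PBS libraries and 86.4 and 87.3 FPKM in the bleomycin libraries (0.19). Without overlap 2 of the 4 complex II genes were higher and 1 lower, against 31.5% and 35.0% of all tested genes. Of 5 complex III assembly factors 0 passed, and the unadjusted p was under 0.05 for 1 higher and 0 lower, and the most abundant were Uqcc2 (0.33) and Uqcc3 (-0.21). Of 10 assembly factors and partners of the ATP synthase 0 passed, and the unadjusted p was under 0.05 for 3 higher and 1 lower. Among the last, the adenine nucleotide carrier gene Slc25a5, X-linked like Cox7b and encoding an exporter of the ATP made, was at 128 and 137 FPKM in the PBS libraries and 165 and 178 FPKM in the bleomycin libraries (0.37, adjusted p = 0.0581 by limma). The phosphate carrier gene Slc25a3 was at 184 and 187 FPKM in the PBS libraries and 218 and 227 FPKM in the bleomycin libraries (adjusted p = 0.105 by limma), and Slc25a4, the muscle-type adenine nucleotide carrier gene, had a change of 0.14. Of 23 genes listed with complex IV assembly 0 rose, 1 fell and 22 did not pass. The unadjusted p was under 0.05 for 1 higher and 2 lower, and without overlap 6 were higher and 4 lower. Surf1, 1 of the 2 lower, was at 33.5 and 41.7 FPKM in the PBS libraries and 28.8 and 22.1 FPKM in the bleomycin libraries. It was lower without overlap and did not pass (-0.55, adjusted p = 0.0963 by limma). The gene that fell, Slc25a33 (from 10.4 and 10.9 to 5.5 and 2.96 FPKM), encodes a mitochondrial pyrimidine nucleotide carrier and is no assembly factor. The most abundant of this list, Coa3 and Cox17, overlapped between groups. Of 4 partner subunits and hypoxia isoforms of complex IV 0 passed, and the unadjusted p was under 0.05 for 0 higher and 1 lower. Ndufa4, now counted as a subunit of complex IV, was at 191 and 222.5 FPKM in the PBS libraries and 228 and 237 FPKM in the bleomycin libraries, and Higd2a had a change of 0.14.

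Regulators of mitochondrial genes showed no called change. Of 14 tested 0 rose and 0 fell, against 8.59% and 7.69% of all tested genes, with a median log2 change of -0.07. The unadjusted p was under 0.05 for 2 higher and 0 lower, against 35.3% of all tested genes. Without overlap 3 were higher and 4 lower, against 31.5% and 35.0% of all tested genes. The largest change was that of Pprc1, at 6.94 and 6.72 FPKM in the PBS libraries and 11.1 and 8.94 FPKM in the bleomycin libraries. It was higher without overlap and did not pass (0.485, adjusted p = 0.0665 by limma). The most abundant were Yy1 (0.25) and Polg, the mitochondrial DNA polymerase (-0.21). Nrf1, the nuclear respiratory factor, was at 7.35 and 8.17 FPKM in the PBS libraries and 6.97 and 6.62 FPKM in the bleomycin libraries. Tfam, which packages mitochondrial DNA, was at 5.88 and 6.6 FPKM in the PBS libraries and 6.37 and 5.53 FPKM in the bleomycin libraries. Of 16 genes of mitochondrial membranes and import 1 rose (Timm23, an import channel gene, from 39.2 and 44.7 to 57.2 and 60 FPKM), 0 fell and 15 did not pass. In this list the unadjusted p was under 0.05 for 3 higher and 0 lower. The most abundant, the outer membrane channel genes Vdac2 and Vdac1, had changes of 0.20 and 0.12.

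Promoter windows of 34 of the 43 genes were found in the RefSeq table (GRCm38.p6; 250 bases before to 50 after the start, 38 windows). The letters GCGCATG on either strand, the core of sites for the nuclear respiratory factor NRF1, were in 8 of the 34 (Atp5g2, Atp5k, Atp5l, Cox5b, Cox6a1, Cycs, Uqcr11 and Uqcrc1), or 23.5%, against 4.41% of all genes with a window and 7.55% of tested genes. This core was chosen after a longer form had been searched. In the 6 genes whose match lies wholly before the start with bases on both sides, it is shown on the gene's strand with the bases around it, the match in capitals and overlapping matches of both strands joined:
Atp5g2 (chr15:102671060-102671109, minus strand): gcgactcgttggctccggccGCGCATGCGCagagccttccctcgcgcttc
Atp5k (chr5:108434420-108434469, minus strand): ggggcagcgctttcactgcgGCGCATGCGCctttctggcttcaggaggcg
Cox6a1 (chr5:115349091-115349140, minus strand): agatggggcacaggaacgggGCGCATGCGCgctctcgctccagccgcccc
Cox5b (chr1:36691416-36691462, plus strand): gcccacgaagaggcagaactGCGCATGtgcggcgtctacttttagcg
Cycs (chr6:50566602-50566648, minus strand): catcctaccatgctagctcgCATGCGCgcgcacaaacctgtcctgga
Atp5l (chr9:44920955-44920992, minus strand): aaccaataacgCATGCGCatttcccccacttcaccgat
In the first 3 the core stands on both strands and forms a palindrome. The 8 genes had log2 changes of -0.02 (Uqcr11) to 0.37 (Cycs). Of these, 7 lay above the median of the 43 and Uqcr11 below it, a description with no test. CCGGAAG on either strand, the core of sites for ETS factors such as GABP, was in 10 of 34 (29.4%), against 9.93% of all genes and 19.4% of tested genes. AAGATGG, part of YY1 sites, was in 5 (14.7%; 7.28% and 8.07%), CCAAT in 19 (55.9%; 41.1% and 42.5%) and TATAAA in 2, Atp5l and Cox8b (5.88%; 15.7% and 8.96%). Matches to CCGGAAG and to the NRF1 core both occur for Atp5k, Atp5l, Cox6a1 and Uqcr11. A match is a run of letters and was not tested as a binding site.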

How the data were processed

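Gene-level FPKM values with RefSeq accessions came as a single table deposited by the authors, per the file headers. The submitters' processing notes name HISAT, Bowtie2 and, as builds, GRCm38 and mm10; the sources used here give no roles, versions, quantification tool or read length. The 1 unnamed row (up to 0.0009% of summed FPKM) was dropped, and 27 symbols that had become dates were recovered by accession, leaving 17691 genes. Depth was the fragment number that best made values of 0.03 to 0.3 FPKM, of genes with 1 transcript of 300 to 1000 bases, whole to within 0.15 (75% to 78.1% of 148 to 202 values, against 30% for evenly spread values). Lengths come from GENCODE M21 for 17558 genes. log2(FPKM + 1) was tested with limma 3.58.1 in R 4.3.3 (trend, two-sided, Benjamini-Hochberg) for the 12986 genes whose mean reached 1 FPKM; prior degrees of freedom were 2.76 and residual ones 2. The function was checked on simulated data. Sums and shares were tested with exact permutation over libraries (15 such quantities, whose p-values were not adjusted since none can fall below 0.333). Isoform sequences were aligned with biopython 1.88 under Python 3.11.15. All 43 genes are named; genes of other lists are named where called, among the 2 highest or, as for Slc25a5, Higd1b, Rgs5, Cspg4, Notch3, Myh11, Ndufa4l2, Nrf1, Tfam, Myh6, Myl4, Dio2 and Ucp1, by choice after their values were seen. The genes and lists were chosen with earlier results of these data known. Alternatives were pseudocounts, filters, scalings, eBayes settings, a block for replicate number, and fits without each library.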

Additional observations from a re-analysis of the deposited data

How the results depend on the processing

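With 2 libraries per group the calls depended on single libraries. Over the fits without 1 library, the genes of the 43 called higher numbered 0 to 9 and lower 0 to 5, and those among all tested genes 0 to 2402 and 0 to 3144. Of the 43, 4 were called higher after rescaling to TPM, 2 with upper quartile scaling and 2 with quantile normalization, and 0 were called lower with pseudocounts of 0.1 and 0.5, no filter or a filter of 5 FPKM, where Cox8b is not tested. These scalings put the median of all tested genes at 0.039, 0.012 and -0.015. The median change of the 43 stayed above 0 in every setting run, at 0.072 to 0.208 without 1 library.

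The log2 ratio of the complex III sums (0.082) was -0.017 to 0.188 without 1 library, that of complex IV (0.133) 0.068 to 0.201 and that of the ATP synthase (0.145) 0.09 to 0.203. The last was 0.214 after rescaling to TPM, and that of the subunit c genes (0.24) was 0.309 (TPM), 0.28 (upper quartile) and 0.171 (quantile). Differences in share, in percentage points, were -3.039 to 0.281 for Cox6b2, -1.081 to 1.005 for Cox7a1 (0.218 with quantile normalization) and -1.211 to 1.374 for Atp5g3 without 1 library. For Cox4i2 (-8.32) they were -11.181 to -5.459, for Cox6a2 (-0.752) -1.058 to -0.446 and for Atp5g1 (2.139) 0.899 to 3.38.

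Log2 changes near 0 turned sign. After rescaling to TPM these were Atp5h (0.05), Uqcr10 (0.03), Uqcr11 (0.04), Uqcrc2 (0.06), Cox6b2 (0.04) and Atp5s (0.03). With upper quartile scaling they were Atp5h (0.02), Uqcr10 (0.00), Uqcr11 (0.02), Uqcrc2 (0.03), Cox6b2 (0.01) and Atp5s (0.00), and with quantile normalization Atp5j (-0.01) and Uqcrh (-0.05). Without 1 library the ranges were -0.03 to 0.25 (Atp5e), -0.09 to 0.06 (Atp5h), -0.03 to 0.08 (Atp5j), -0.19 to 0.12 (Uqcr10), -0.15 to 0.10 (Uqcr11), -0.08 to 0.07 (Uqcrc2), -0.05 to 0.12 (Uqcrh), -0.37 to 0.31 (Cox6b2), -0.22 to 0.35 (Cox7a1), -0.03 to 0.24 (Cox7c) and -0.19 to 0.14 (Atp5s). The causes of these changes were not tested.

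The replicate numbers do not pair the libraries by any label, and the differences between replicates of the groups correlated at 0.02 over all tested genes and at 0.2 over the 43. With the replicate block 1 of the 43 was called higher and 1 lower, and no call among them changed. Where a library is left out, the lone library of its group is assumed to vary like the other group. Calls in those fits take their spread from the other group alone. Depth limits Cox8b, Cox7a1, Cox6a2 and Atp5s, which rest on the fewest fragments.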
